A study of Mus musculus with 11 samples.

Results

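The immunoglobulin heavy-chain locus Igh and the kappa light-chain locus Igk were examined in sorted CD4+ CD8+ double positive thymocytes, cells of the T lineage in which neither locus encodes the antigen receptor. All peaks with a midpoint on mm9 chr12:114300000-117260000 (the Igh window, 2.96 Mb) or chr6:67500000-70750000 (the Igk window, 3.25 Mb) were taken. These were 195 of the 120616 peaks in 6 lists, 165 over Igh and 30 over Igk, and no peak crossed a window edge.

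Each immunoglobulin locus is a long array of V (variable) segments with joining and constant segments at one end, and Igh also has D (diversity) segments between them. B cell precursors assemble one V, for Igh one D, and one J segment with the RAG recombinase, which thymocytes use on the T cell receptor loci. Joining of Igh D to J segments is known to occur in thymocytes as well, whereas joining of Igh V segments and of Igk belongs to B cells. Cohesin, the ring-shaped complex that extrudes chromatin loops and halts at sites bound by CTCF, is known in B cell precursors to bring distant V segments towards the joining segments. In the gene order of RefSeq (GRCm38.p6, used for names and order only), Igh has 120 V segments and 63 V pseudogenes and Igk 102 and 60. The constant segments lie at the lower-coordinate end of Igh and at the higher-coordinate end of Igk, so positions below are also given as distances from the constant-region end of each window. The next coding genes past the constant end are Tmem121 and Tedc1 for Igh and Rpia and Eif2ak3 for Igk. No mm9 annotation was used, so peaks were not assigned to V, D, J or constant segments, to enhancers or to the neighbouring genes, which the windows may reach.

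Active promoters and enhancers are marked by acetylation of histone H3 at lysine 27 (H3K27ac). The mark had been mapped by chromatin immunoprecipitation and sequencing (ChIP-seq) in 2 Rad21-deleted (KO) libraries and 2 wild-type (WT) libraries, and the cohesin subunit Smc1a in 2 WT libraries. All libraries came from thymocytes of mice aged 6 weeks. KO thymocytes carried a floxed Rad21 allele deleted by a Cd4-driven Cre transgene. The controls were littermates, and whether they carried Cre or a floxed allele is not given in the sources used here. Rad21 encodes the subunit that closes the cohesin ring, and because Cd4 is first expressed at about this stage the deletion concerns thymocytes that had already passed earlier T cell development. Peak lists do not show the deleted allele, so the deletion was not checked here, nor was the cell type against its marker genes. The H3K27ac lists held 19503 and 20244 peaks (KO) and 21973 and 15686 peaks (WT), and the Smc1a lists 25484 and 17726. Depth per library is unknown. Peak scores are the authors', from their caller, with a lowest value of 50 in the lists. A score is given here mainly as its percentile, the share of peaks in the same list with a lower score. In chromatin from many cells, a mark carried by few cells and a weak mark carried by all cells cannot be told apart.

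Igh was acetylated in KO and WT thymocytes alike, over a broad stretch towards the constant end and in several separate groups far into the window, on the side of the V segments. There were 22 and 18 H3K27ac peaks over Igh in the KO libraries, against 22 and 15 in the WT libraries. The called length was 56.9 and 46.4 kb in KO and 56.7 and 40.1 kb in WT libraries. The WT value of replicate 2 was the lowest on both measures, and the genotypes overlapped. Means were 20 ± 2.83 peaks in KO and 18.5 ± 4.95 in WT libraries (SD, n = 2 each), a difference below the spread within WT (two-sided exact permutation test, p = 1.00). For called length they were 51.7 ± 7.42 kb in KO and 48.4 ± 11.72 kb in WT (exact permutation test, p = 0.667, where 2 against 2 libraries cannot give less than 1 in 3). With the upper 75% of each list by score the counts were 13 and 14 in KO and 12 and 12 in WT libraries, which no longer overlapped (exact permutation p at its smallest, 1 in 3), and the lengths, 44.5 and 41.6 kb in KO and 42.0 and 35.9 kb in WT, still did. The difference of 1.5 peaks was -0.5 without KO replicate 1, 3.5 without KO replicate 2, 5 without WT replicate 1 and -2 without WT replicate 2. That of 3.28 kb was -1.96, 8.53, 11.57 and -5.00 kb in the same order. H3K27ac covered 1.92% and 1.57% of the Igh window in KO and 1.91% and 1.35% in WT libraries, against 2.00%, 1.80%, 2.13% and 1.73% of the rest of the genome in the same 4 libraries. These shares are for the whole window and do not describe the V side. With the peaks of the 4 libraries merged, 14 of 25 acetylated regions lay within 500 kb of the constant end. The share covered beyond them was not calculated.

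**Figure D1:**
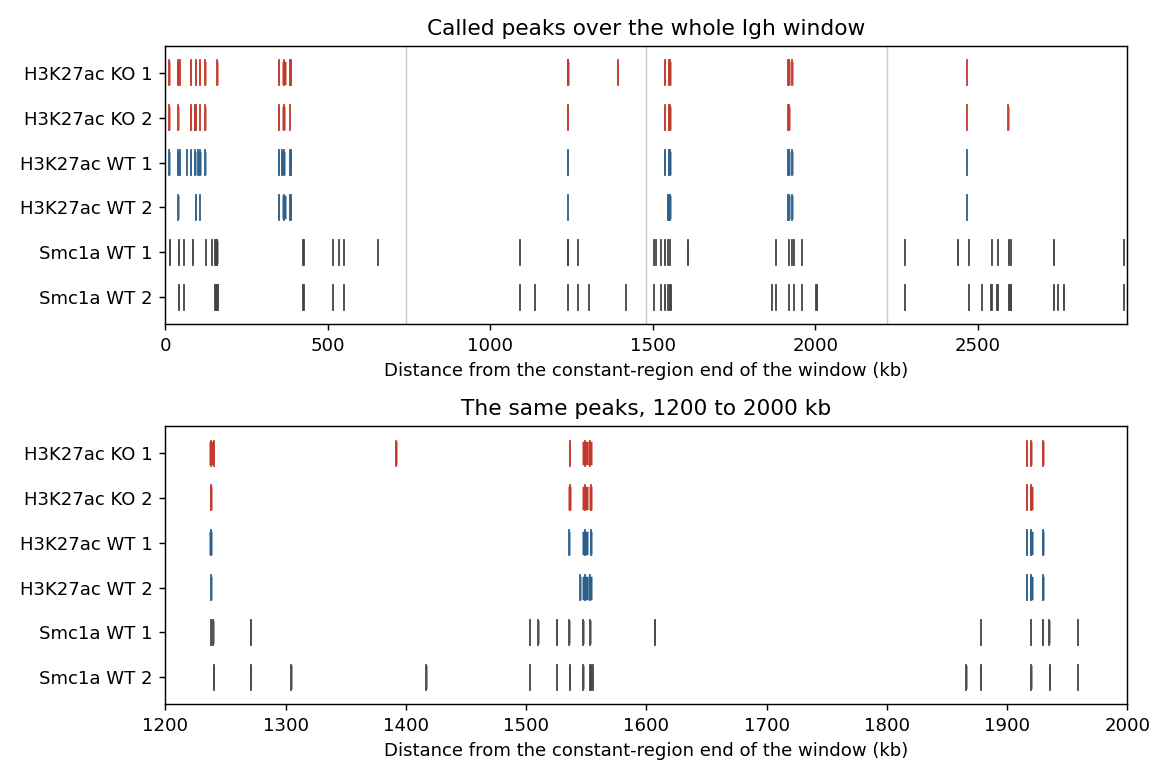
Called H3K27ac peaks (KO red, WT blue) and Smc1a peaks (grey) of each library over Igh, by distance in kb from the constant-region end of the window; each mark is a peak, drawn at a minimum width, and grey lines divide the window into 4 equal parts. Acetylation recurs near 1238, 1551, 1920 and 2466 kb in all 4 libraries, and Smc1a marks run along most of the window.

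Merging the 4 lists gave 25 acetylated regions over Igh, of which 11 had a peak in all 4 libraries. This share was 49.6% over all 24430 regions of the genome. No Igh region had a call in each KO library but none in WT (2.82% of all regions did), and none in each WT library but none in KO (2.33%). A single library called 7 of the 25, against 21.1% of all regions: 3 of these were in KO replicate 1, 1 in KO replicate 2, 2 in WT replicate 1 and 1 in WT replicate 2.

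The longest acetylated region of either locus lay 363.7 kb from the constant end of Igh, at chr12:114656771-114670534 (13764 bp). It was covered over 12144 and 10041 bp in KO libraries and over 12491 and 10968 bp in WT libraries, so the genotypes overlapped. Its best peak had a score of 3100 in every library, a value reached by 5.91% and 6.54% of KO peaks and 6.98% and 5.02% of WT peaks. As background, the intronic Igh enhancer between the joining and constant segments is known to be active in T as well as B cells, but the region was not matched to it here.

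That stretch had acetylated neighbours on both sides. Nearer the constant end, chr12:114647670-114650978 was covered over 3076 and 2931 bp in KO and 2421 and 2262 bp in WT libraries, both KO values above both WT values. Its score percentiles had the opposite order, at 47.8 and 39.0 in KO and 67.9 and 49.9 in WT libraries. The 2 measures thus disagreed on direction at this region. On the V side, chr12:114683861-114684994 was covered over 812 and 530 bp in KO and 815 and 1134 bp in WT libraries. Beside it, chr12:114685043-114686386 was covered over 1135 and 0 bp in KO and 1337 and 1261 bp in WT libraries, with no call in KO replicate 2. In both of these short regions the KO values lay below the WT values, and all their peaks were weak, at the 1.83 to 8.04 percentile in KO and the 13.5 to 41.8 percentile in WT libraries.

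Within 200 kb of the constant end, 10 regions of 917 to 6607 bp formed a group that also contains 7 Smc1a sites found in both replicates. The strongest were chr12:114404507-114408642, with percentiles of 82.7 and 63.2 in KO and 79.1 and 78.2 in WT libraries, and chr12:114389203-114395809, with 76.1 and 72.7 in KO and 79.5 and 27.5 in WT libraries. A region at chr12:114336951-114341325 was also called in all 4 libraries, over 4113 and 2283 bp in KO and 3764 and 2100 bp in WT libraries. Those at chr12:114311551-114313886, chr12:114377391-114379415 and chr12:114422406-114424104 were called in all libraries but WT replicate 2, whose list is the shortest of the 4. Its part in these missing calls was not tested. The last of the 3 was covered over 1680 and 1687 bp in KO and 1499 and 0 bp in WT libraries, both KO values above both WT values. The remaining 4 were weak. One, chr12:114344586-114346551, was called in replicate 1 of each genotype, 2 (chr12:114366811-114367994 and chr12:114401630-114402546) in WT replicate 1 alone, and chr12:114460033-114461104 in KO replicate 1 alone. This group lies on the side of the neighbouring genes.

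Beyond the 740 kb of the window nearest the constant end, 11 acetylated regions stood in groups separated by long stretches with no call. The first, at 1238.0 kb, chr12:115536602-115539481, was covered over 2700 and 2163 bp in KO and 2424 and 1318 bp in WT libraries. Its score percentiles were 58.8 and 66.5 in KO and 21.1 and 29.5 in WT libraries, so both KO libraries ranked it above both WT libraries. It was the single Igh region among the 11 called in all 4 libraries with that order, against 19.3% of all such regions in the genome, and 3 had the reverse order (16.6%). Adjacent to it, chr12:115539593-115540776 was called in KO replicate 1 alone, at the 10.4 percentile, as was chr12:115691272-115692403, at the 5.73 percentile.

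The next group was the most heavily acetylated of the V side. At 1551.0 kb, chr12:115846879-115855213 (8335 bp) was covered over 8195 and 7857 bp in KO and 6404 and 8034 bp in WT libraries, by 2 peaks in each. Its best score was at the 91.4 and 89.5 percentile in KO and the 87.4 and 91.5 percentile in WT libraries, so it stood in the upper part of every list and the genotypes overlapped. Close by, chr12:115835283-115836970 was covered over 1457 and 1688 bp in KO and 1327 and 0 bp in WT libraries, both KO values above both WT values, with no call in WT replicate 2. A weak region at chr12:115844441-115845942 was called in WT replicate 2 alone.

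Further along, 2 more positions were called in every library. Near 1920 kb, chr12:116218866-116221387 was covered over 1651 and 2447 bp in KO and 2298 and 2369 bp in WT libraries, at the 80.5 and 81.4 percentile in KO and the 87.5 and 89.8 percentile in WT. The percentile was thus lower in both KO libraries, while the lengths overlapped. Beside it, chr12:116215601-116216764 was covered over 1150 and 1063 bp in KO and 983 and 1105 bp in WT libraries. On its other side, chr12:116228718-116230276 was covered over 1418 and 0 bp in KO and 1559 and 1423 bp in WT libraries, both KO values below both WT values. At 2466.0 kb, chr12:116764986-116767073 was covered over 1932 and 1952 bp in KO and 1885 and 2088 bp in WT libraries. The last, chr12:116893357-116894874, was called in KO replicate 2 alone at the 0.840 percentile, near the lowest score of its list.

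Counted over all 25 Igh regions, the 2 KO lengths exceeded the 2 WT lengths in 3 regions and fell short of them in 3, against 17.0% and 15.9% of all regions in the genome. Among the 11 regions called in all 4 libraries it was greater in 1 and smaller in 1, against 17.4% and 22.9%. The members' counts were thus even in both directions, and no higher than the share of the genome in either.

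**Figure D2:**
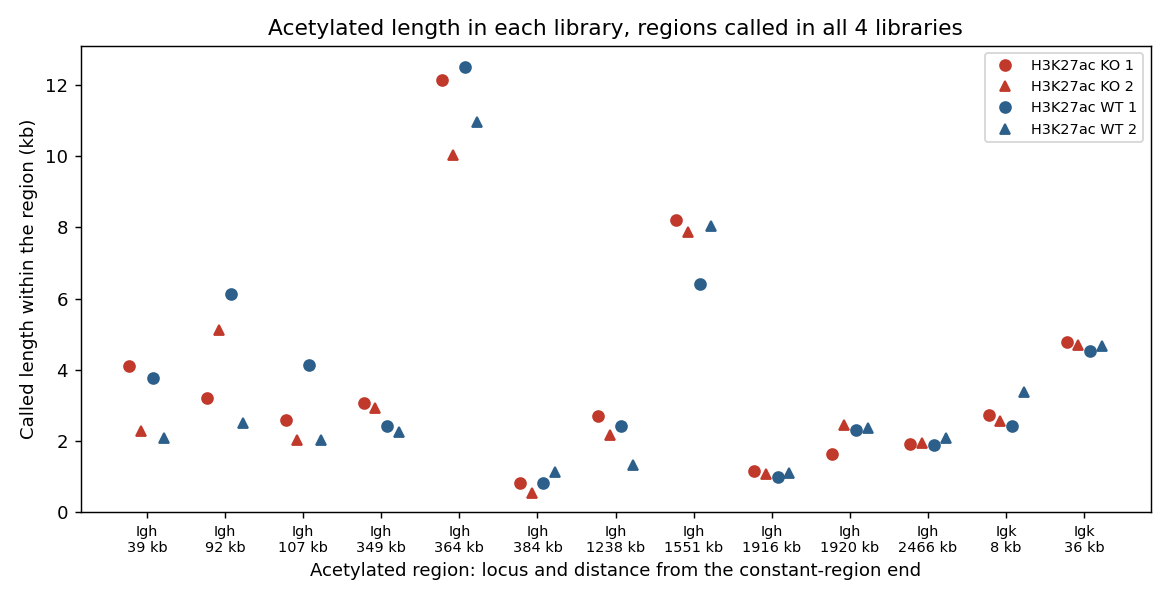
Called H3K27ac length in kb (vertical axis) in each KO (red) and WT (blue) library, for the 13 regions of Igh and Igk called in all 4 libraries, named by locus and distance from the constant-region end. The 2 most extended regions of Igh reach 12491 bp and 8195 bp in their longest library, and KO and WT points overlap at most regions.

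The Igk window was acetylated at its constant-region end alone, within 100 kb of its edge. No H3K27ac peak was called over the rest of the window in any library. These peaks lie on the side of the neighbouring genes, which the window may reach, and were not assigned to Igk or to those genes. There were 6 and 3 peaks in the KO libraries and 3 and 5 in the WT libraries. They covered 15 and 8.4 kb in KO and 8.2 and 12.1 kb in WT libraries. Means were 4.5 ± 2.12 peaks in KO and 4.0 ± 1.41 in WT libraries (SD, n = 2 each, exact permutation test, p = 1.00), and 11.7 ± 4.66 kb in KO and 10.2 ± 2.75 kb in WT libraries (exact permutation test, p = 0.667). The genotypes overlapped on both measures. The difference of 0.5 peaks was -1 without KO replicate 1, 2 without KO replicate 2, -0.5 without WT replicate 1 and 1.5 without WT replicate 2, and that of 1.49 kb was -1.80, 4.79, -0.45 and 3.44 kb. H3K27ac covered 0.460% and 0.258% of the Igk window in KO and 0.253% and 0.373% in WT libraries, against 1.73% to 2.14% of the rest of the genome.

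Of 6 acetylated regions over Igk, 2 were called in all 4 libraries, against 49.6% of all regions of the genome. The strongest, chr6:70711578-70716353, lay 36.0 kb from the window edge and was covered over 4776 and 4701 bp in KO and 4526 and 4656 bp in WT libraries, with a score of 3100 in each. Both KO lengths were above both WT lengths, an order found in 17.4% of all regions called in all 4 libraries. At 8.3 kb, chr6:70740010-70743390 was covered over 2741 and 2568 bp in KO and 2427 and 3381 bp in WT libraries. The stretch next to the strongest region, chr6:70716420-70719300, was covered over 2877 and 1109 bp in KO and 0 and 2703 bp in WT libraries. It was at the 37.8 and 11.1 percentile in KO and the 7.44 percentile in WT replicate 2, with no call in WT replicate 1. The other 3 were weak as well, at the 17.2 to 32.3 percentile, and also differed between libraries of a genotype. The region chr6:70703036-70704465 was called in KO replicate 1 and WT replicate 2, chr6:70663810-70665446 in replicate 1 of each genotype, and chr6:70659178-70661057 in KO replicate 1 alone. Each of the 6 was called in KO replicate 1, so that library held the highest number.

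**Figure D3:**
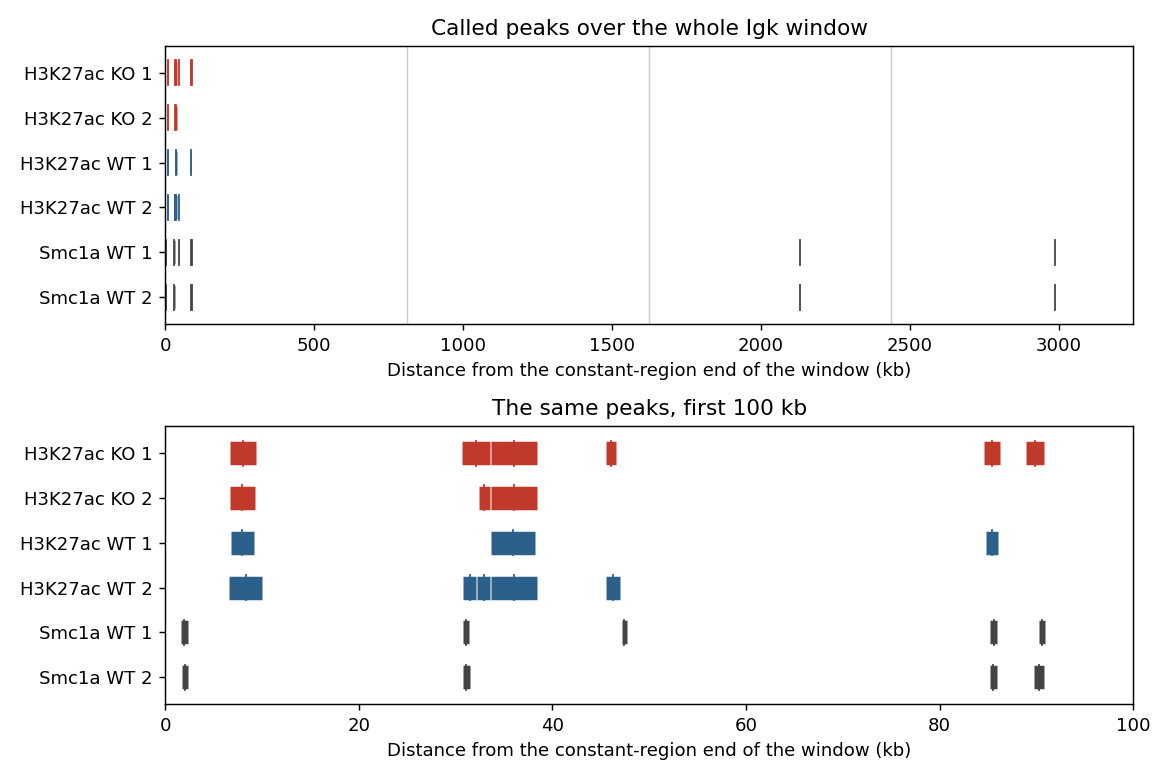
Called H3K27ac peaks (KO red, WT blue) and Smc1a peaks (grey) of each library over Igk, by distance in kb from the constant-region end of the window; marks in the upper panel have a minimum width and grey lines divide the window into 4 equal parts. All H3K27ac peaks lie in the first 100 kb, and beyond it each Smc1a library has 2 peaks, near 2131 and 2987 kb.

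Smc1a sites were numerous over Igh and few over Igk. Over Igh the 2 WT replicates held 42 and 46 Smc1a peaks, and over Igk 7 and 6. Of the Igh peaks, 73.8% of replicate 1 and 67.4% of replicate 2 overlapped a peak of the other replicate. Merging both lists gave 57 sites over Igh, of which 31 had a peak of both replicates, and 7 over Igk, of which 6 did. The share of merged sites found in both replicates was 52.8% over the genome. Per Mb these were 10.5 sites over Igh against 5.62 in the rest of the genome, 1.86-fold, and 1.85 over Igk against 5.63, 0.328-fold. With the 200 kb nearest the constant end left out, Igh kept 24 sites, 1.55-fold the density of the rest, and Igk kept 2 sites, 0.116-fold. In windows widened by 100 kb at each end Igh held 34 sites (1.91-fold) and Igk 15 (0.772-fold), so the Igk value moved with the window edge. The single lists gave the same order. Replicate 1 alone held 14.2 peaks per Mb over Igh against 9.65 in the rest of the genome (1.47-fold), and replicate 2 held 15.5 against 6.71 (2.32-fold). Over Igk they were 2.15 against 9.67 (0.223-fold) and 1.85 against 6.72 (0.275-fold). Smc1a was mapped in WT cells only, so these values have no contrast over samples and no test.

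Windows of the same length give the range of these densities elsewhere. The stretches that flank Igh held 45 (lower coordinates) and 14 (higher coordinates) sites found in both replicates, with 71 and 21 acetylated regions, against 31 sites and 25 acetylated regions over Igh. Those that flank Igk held 19 and 58 sites, with 28 and 72 acetylated regions, against 6 and 6 over Igk. Of 875 windows of 2.96 Mb tiled over the genome outside both loci, 718 held fewer sites than Igh and 144 held more, with a median of 14. The first of these windows on each tiled chromosome held no site and no acetylated region, and was counted. Among the 491 windows with at most 25 acetylated regions, the number of Smc1a sites ran from 0 to 29 with a median of 5. None of these reached the 31 of Igh, and the 144 windows with more sites all had more acetylated regions than Igh. Of 795 windows of 3.25 Mb, 216 held fewer sites than Igk and 552 more, with a median of 15. Among the 183 with at most 6 acetylated regions the median was 1, 174 held fewer sites than Igk and 3 held more. Both sets end at the locus's own number of acetylated regions and reach down to windows with none, which lowers their medians. They are therefore not sets of equal acetylation. This is a description of the windows with no test.

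**Figure D4:**
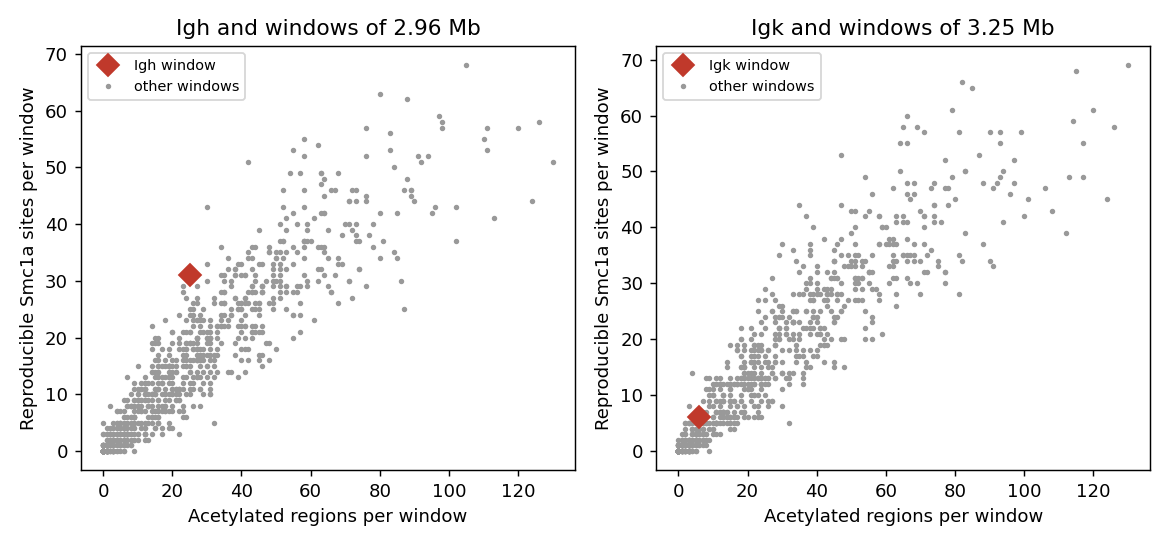
Smc1a sites found in both replicates (vertical axis) against acetylated regions (horizontal axis) in windows of 2.96 Mb (left, with Igh as a red diamond) and 3.25 Mb (right, with Igk as a red diamond) tiled over the genome. Igh, with 31 sites and 25 acetylated regions, lies at the upper edge of the cloud for its acetylation, and Igk, with 6 and 6, near its lower corner.

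The sites were spread unevenly along Igh. From the constant end, the 4 equal parts of the window (740 kb each) held 11, 3, 9 and 8 sites found in both replicates. Replicate 1 gave 17, 4, 12 and 9 merged sites and replicate 2 gave 11, 6, 14 and 15 in the same parts. Beyond the part nearest the constant end there were 20 sites over 2.22 Mb (9.01 per Mb), with 25 in replicate 1 and 35 in replicate 2, although the list of replicate 2 is the shorter one. Over Igk the 4 parts (812.5 kb each) held 4, 0, 1 and 1 sites, which leaves 2 sites over the 2.44 Mb beyond the part nearest the constant end (0.821 per Mb).

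At the constant end of Igh, 5 sites stood side by side within 7648 bp, from 114453922 to 114461569, 154.4 to 160.8 kb from the window edge. Their Smc1a scores were between the 44.0 and 88.5 percentile in replicate 1 and between the 43.6 and 88.1 percentile in replicate 2. The strongest of the 5 was chr12:114460040-114461569, at the 88.5 and 88.1 percentile, which overlapped the acetylated region of KO replicate 1 named above. Another of them, chr12:114457950-114459363, was at the 84.8 and 79.8 percentile and overlapped no acetylation. As background, a cluster of CTCF sites is known to close the constant end of Igh, and a second pair of CTCF sites between the V and D segments is known to insulate them. The sites found here were matched to neither.

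The strongest Smc1a site of Igh, chr12:114725847-114726457, lay 426.2 kb from the constant end at the 95.2 and 93.1 percentile. A weaker site, chr12:114723136-114724107, lay 2530 bp before it at the 61.9 and 77.7 percentile. At 516.6 kb, chr12:114816186-114817036 was at the 92.0 and 86.8 percentile. None of these 3 overlapped acetylation, and the nearest acetylated region lay 36749 bp from the closest of them. Far into the window, at 2542.9 kb, chr12:116841911-116843807 was at the 89.5 and 88.1 percentile, 49549 bp from acetylation. The first site of the window, chr12:114340507-114341370, was weak in replicate 2 (60.8 and 0.169 percentile). The last, chr12:117248796-117249989, lay 2949.4 kb from the constant end at the 74.0 and 87.9 percentile.

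Averaged over both lists, the score percentile was above 50 at 9 of the 11 sites in the part of Igh nearest the constant end and at 9 of the 20 sites beyond it. Over the genome it was above 50 at 63.6% of sites found in both replicates. The medians were 74.5 near the constant end of Igh and 48.1 beyond it, against 60.6 over the genome.

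**Figure D5:**
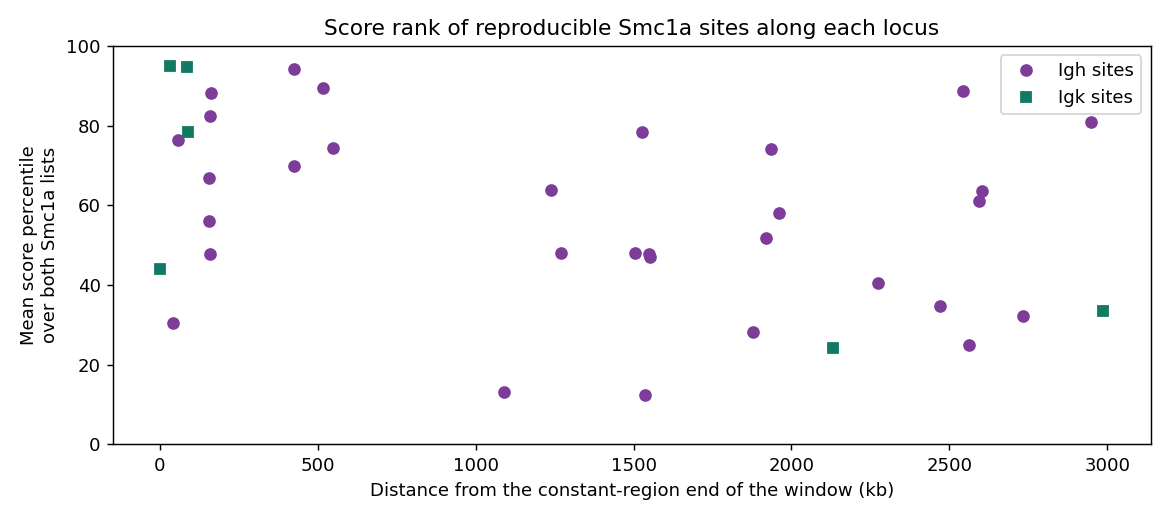
Score percentile of each Smc1a site found in both replicates, averaged over the 2 lists (vertical axis), by distance in kb from the constant-region end, for Igh (circles) and Igk (squares). The highest points of both loci, 94.1 for Igh and 95.0 for Igk, lie within 500 kb of the constant end, and the 2 Igk sites far from it stand at 24.1 and 33.4.

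Neighbouring Smc1a sites of Igh were a median of 31.2 kb apart from midpoint to midpoint (quartiles 10.8 and 144.1 kb, 30 spacings), against 46.1 kb over the genome (quartiles 14.8 and 117.8 kb). Of the 30 spacings, 7 were under 10 kb (23.3%, against 18.7% over the genome) and 9 were 100 kb or more (30.0%, against 28.9%). Over the whole window, Igh thus combined closely set sites with long gaps, as did the genome. Most of the spacings under 10 kb lay in the part nearest the constant end. Beyond that part the median was 31.5 kb over 19 spacings, from 5.92 to 324.5 kb, of which 11 were under 50 kb and 7 were 100 kb or more. The only spacings under 10 kb there were those of 5.92 and 8.27 kb, so closely set sites were few on the V side. With each replicate alone the median over the whole window was 23.9 kb (replicate 1) and 22.4 kb (replicate 2).

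The longest gap of Igh, 541.9 kb, ran from chr12:114849120-114849684 (74.1 and 75 percentile) to the weak site chr12:115391179-115391506 (17.3 and 9.07 percentile), and held 1 site of a single replicate and no acetylated region. The second, 324.5 kb, ran from chr12:115853108-115853876 to chr12:116177807-116178207 and held 4 sites of a single replicate. The third, 315.9 kb, ran from chr12:116258895-116259282 to chr12:116574891-116575135 and held 2. No acetylated region was centred in any of the 3. Over the genome, 94.5% of spacings were shorter than the longest gap of Igh.

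The 6 Smc1a sites of Igk were 4 near the constant end and 2 far from it. The strongest, chr6:70718558-70719228 at 31.1 kb, was at the 94.3 and 95.7 percentile of the 2 lists. At 85.6 kb, chr6:70664070-70664773 was at the 92.0 and 97.4 percentile, and 4752 bp further, chr6:70659132-70660207 was at the 67.1 and 89.8 percentile. The site nearest the window edge, chr6:70747613-70748413, was at the 47.1 and 41.0 percentile. As background, the interval between the V and J segments of Igk is known to hold 2 CTCF-bound elements, Cer and Sis, which bias the choice of V segments in B cell precursors, and these sites were not matched to them here.

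Past these, a gap of 2041.0 kb with no site of either replicate and no acetylated region led to chr6:68618498-68618885, at the 42.9 and 5.38 percentile. A further gap of 856.0 kb, also with neither, led to chr6:67762525-67762792, at the 16.0 and 50.7 percentile. Over the genome 98.5% of spacings were shorter than the longest gap of Igk. The third gap, 54.5 kb, lay between the sites at 31.1 and 85.6 kb and held 3 acetylated regions and 1 site of replicate 1. The median of the 5 spacings was 54.5 kb. It was 856.0 kb, from a single spacing, in a window narrowed by 100 kb at each end and 10.2 kb in one widened by as much. With the upper 75% of scores it was 29.1 kb, and without Smc1a replicate 2 it was 33.6 kb.

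Acetylated regions on the V side of Igh lay close to Smc1a sites. Of the 11 beyond the part nearest the constant end, 10 had a site found in both replicates within 10 kb, against 39.2% of all acetylated regions of the genome. That share makes no allowance for site density, which was 9.01 per Mb here and 5.62 outside Igh. The part of density in the closeness was not tested. Over the whole of Igh 14 of 25 regions had such a site, most of them the 10 above, and over Igk 5 of 6. The Igh regions nearer the constant end were thus less often that close. By overlap the counts were 5 of the 11 (7 with the peaks of either replicate), 7 of 25 over Igh and 3 of 6 over Igk, against 14.0% of all regions. Regions of 1 group share their sites, so they are not independent of each other. The 8335 bp region near 1551 kb held 2 sites, chr12:115847230-115847924 (14.6 and 80.9 percentile) and chr12:115853108-115853876 (44.3 and 49.7 percentile), and the region of 2522 bp near 1920 kb held chr12:116219714-116220276 (29.5 and 73.9 percentile). At chr12:115835768-115836444, within a region called in both KO libraries and WT replicate 1, the site was at the 0.181 and 24.5 percentile.

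The other acetylated Smc1a sites of Igh varied in the libraries that called them. At chr12:115539757-115540501 (62.4 and 65.3 percentile) acetylation was called in KO replicate 1 alone, and at chr12:116893926-116894545 (52.0 and 70.0 percentile) in KO replicate 2 alone. At the first site of the window it was called in all 4 libraries, and at the strongest of the 5 adjacent sites in KO replicate 1. In all, 8 of the 31 Igh sites (25.8%, exact 95% interval 11.9 to 44.6) overlapped H3K27ac of any library, against 27.5% of all sites of the genome. Over Igk 3 of 6 did (50%, 11.8 to 88.2), at 31.1, 85.6 and 90.3 kb, the last in KO replicate 1 alone. The longest acetylated region of Igh, by contrast, lay 52601 bp from the nearest Smc1a site found in both replicates, and the strongest of Igk 2204 bp from one. Of the 11 Igh regions called in all 4 libraries, 3 overlapped such a site, against 20.3% of all such regions.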

How the data were processed

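The 6 deposited peak lists, 1 per library, were used, and the 5 input libraries were not analysed here. Alignment was with Bowtie 0.12.8 to mm9, per the submitters' processing notes. Peak names in the files are those MACS gives. The score of each peak is the authors' deposited value. Caller version, settings, input used and the treatment of reads that map to several places, as in repeated V segments, are not given in the sources used. A missing peak is a missing call.

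Peaks were assigned by midpoint. Overlapping or touching H3K27ac peaks of 4 libraries were merged into regions, and Smc1a sites found in both replicates were merged regions with a peak of each (overlap of at least 1 bp). The genome was taken to the last peak of each chromosome (2638.4 Mb in all). Differences were tested with two-sided exact permutation tests over libraries, and the labels leave unstated whether these came from separate mice, so p-values measure a spread that may be technical. Intervals on shares are exact (Clopper-Pearson) and cover counting error only. They count neighbouring sites as independent, which sites within 1 acetylated region are not, so they are no test against the genome share. Python 3.11.15, numpy 2.4.6, scipy 1.17.1 and matplotlib 3.10.9 were used, and interval functions were tested on simulated data. No 2 libraries of a target shared an identical peak.

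The loci, lists and rule for named items were chosen with earlier results of these data known. The rule named all acetylated regions, and of the Smc1a sites the 5 of highest mean percentile per locus, the first and last, those overlapping H3K27ac and those at the 3 longest gaps. Sites beside these were named after their values were seen.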

Additional observations from a re-analysis of the deposited data

How the results depend on the processing

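Across 10 results and 94 alternatives, 59 kept their direction, or a value within 1 SD of the replicates or 1.5 times the count, 25 moved and 10 reversed. For the KO minus WT differences, 2 libraries against 2 allow no permutation p below 1 in 3. The Igh peak number reached this floor with the upper 75% of scores, where both KO counts lay above both WT counts (difference 1.5 peaks). Leaving out 1 H3K27ac library moved the Igh difference from -2 to 5 peaks and from -5.00 to 11.57 kb, and the Igk difference from -1 to 2 peaks and from -1.80 to 4.79 kb. The Igh differences were 3.5 peaks and 10.35 kb in a window widened by 100 kb at each end and 0.5 peaks and 1.63 kb in one narrowed by as much. The Igk difference in peaks was -0.5 with equal numbers of peaks per list and 0 in windows narrowed or widened by 100 kb at each end, and its length difference was 0 and -1.58 kb in those windows. A window trimmed by 200 kb at the constant end, chosen after seeing the data, gave 0 for the Igh difference in peaks and for both Igk differences, since no Igk peak was then left. With the replicate number as a block the means were 1.5 peaks and 3.28 kb for Igh and 0.5 peaks and 1.49 kb for Igk (exact sign-flip permutation p 1.00, 0.5, 1.00 and 1.00, with 0.5 the smallest possible). Whether same-numbered libraries share more than a number is not given in the labels. The differences between replicates 1 and 2 in KO and in WT correlated at 0.03 over 24430 regions. This value cannot decide whether the libraries were paired. Igh kept 24 to 34 Smc1a sites where both replicates were used, and 42 and 46 with 1. Its median spacing was 32.8 kb with the upper 75% of scores, with merging within 1000 bp and with the trimmed window, and 22.4 and 23.9 kb with 1 replicate. Igk had 2 sites in the narrowed and the trimmed window and 15 in the widened one. Its fold over the rest of the genome was then 0.116, 0.116 and 0.772, and 0.283 with the upper 75% of scores, 0.275 and 0.223 with 1 replicate. Its median spacing was 856.0, 856.0 and 10.2 kb in those windows, 29.1 kb with the upper 75% of scores, and 54.4 and 33.6 kb with 1 replicate. The widened window takes in sites past the locus, and the cause of the other changes was not tested.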
